A study of Mus musculus with 8 samples.

Results

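The genes described here carry calcium, magnesium and sodium chloride in the distal convoluted tubule and the connecting tubule, the segments of the nephron between the thick ascending limb and the collecting duct. The list holds 10 genes chosen by function, namely S100g, Calb1, Pvalb, Trpv5, Trpm6, Slc12a3, Slc8a1, Atp2b1, Wnk1 and Klhl3. Of these, 9 were on a named row of the array among 22206 probes and 19505 named genes, and Klhl3 was not analysed here. A gene with several rows was to be represented by its brightest row, but each of the 9 had 1 row, so no measured value chose a row. The list was nevertheless drawn up with earlier results of these data known, the fall of S100g among them, so the tests below are no independent evidence for it. Expression was measured in the kidney of NZBWF1 mice, a cross of the New Zealand Black strain with New Zealand White, in which a lupus-like nephritis develops with age. One group held 4 mice of 8 weeks and the other 4 mice of 28 weeks, with 1 Clariom S Mouse array of total kidney RNA per mouse. The labels name no treatment, and number the younger mice as replicates 1 to 4 and the older as replicates 6 to 9. The younger mice of the same strain were the only control, so age and disease cannot be told apart.

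Calcium crosses the cells of these segments in 3 steps. It enters from the urine through the apical channel Trpv5, is carried through the cytosol by the binding proteins calbindin-D28k (Calb1) and calbindin-D9k (S100g), and leaves to the blood through the sodium-calcium exchanger NCX1 (Slc8a1) and the plasma membrane calcium pump PMCA1 (Atp2b1). Magnesium enters through the apical channel Trpm6, and parvalbumin (Pvalb) is a calcium-binding protein found in the early distal convoluted tubule. Sodium chloride enters through the thiazide-sensitive cotransporter NCC (Slc12a3), which is switched on by a kinase cascade headed by the WNK kinases, and the Klhl3 ubiquitin ligase adaptor targets those kinases for breakdown.

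Values are log2 expression values after robust multi-array averaging (RMA), in which an increase of 1 is a doubling of signal, given as mean ± SD with n = 4 mice at each age. Differences are 28 weeks minus 8 weeks on that log2 scale, with their standard error (SE), and each adjusted p comes from a limma fit of all 22206 probes (Benjamini-Hochberg, threshold 0.05). Precision is limited by there being 4 arrays at each age. The whole kidney was sampled, so fewer cells of a segment and less RNA per cell cannot be told apart. The median log2 value of an array was 5.98 to 6.14. On the first principal component of all probes 28-week replicate 7 had a score of -12.9, inside the 8-week range of -39.5 to -7.66, while the other 28-week mice had scores of 31.8 to 59.9. Replicate 1 of the 8-week group stood apart on the second component. The results are therefore also given without 28-week replicate 7. That mouse was picked for its likeness to the younger mice, so larger differences and smaller p-values without it follow in part from the choice. They are no independent support. The 9 rows were all brighter than the median probe.

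The calcium-binding proteins and the magnesium channel had the lowest values at 28 weeks relative to 8 weeks, while the calcium channel Trpv5 and the calcium pump Atp2b1 differed little on average. S100g fell 5.48-fold and Pvalb 5.37-fold, and these were the members that passed the threshold. In all, 2 of the 9 measured members were lower and none higher at an adjusted p under 0.05, where 0.522% of all probes were lower. No member was higher at an unadjusted p under 0.05 either, and 7 of 9 were lower at that level, where 15% of all probes differed in either direction. All 9 differences were negative, with a median of -1.65 on the log2 scale against -0.01 over all probes. In 5 members, S100g, Calb1, Pvalb, Trpm6 and Wnk1, every 28-week mouse lay below every 8-week mouse, a separation in this direction seen in 4.33% of all probes.

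**Figure D1:**
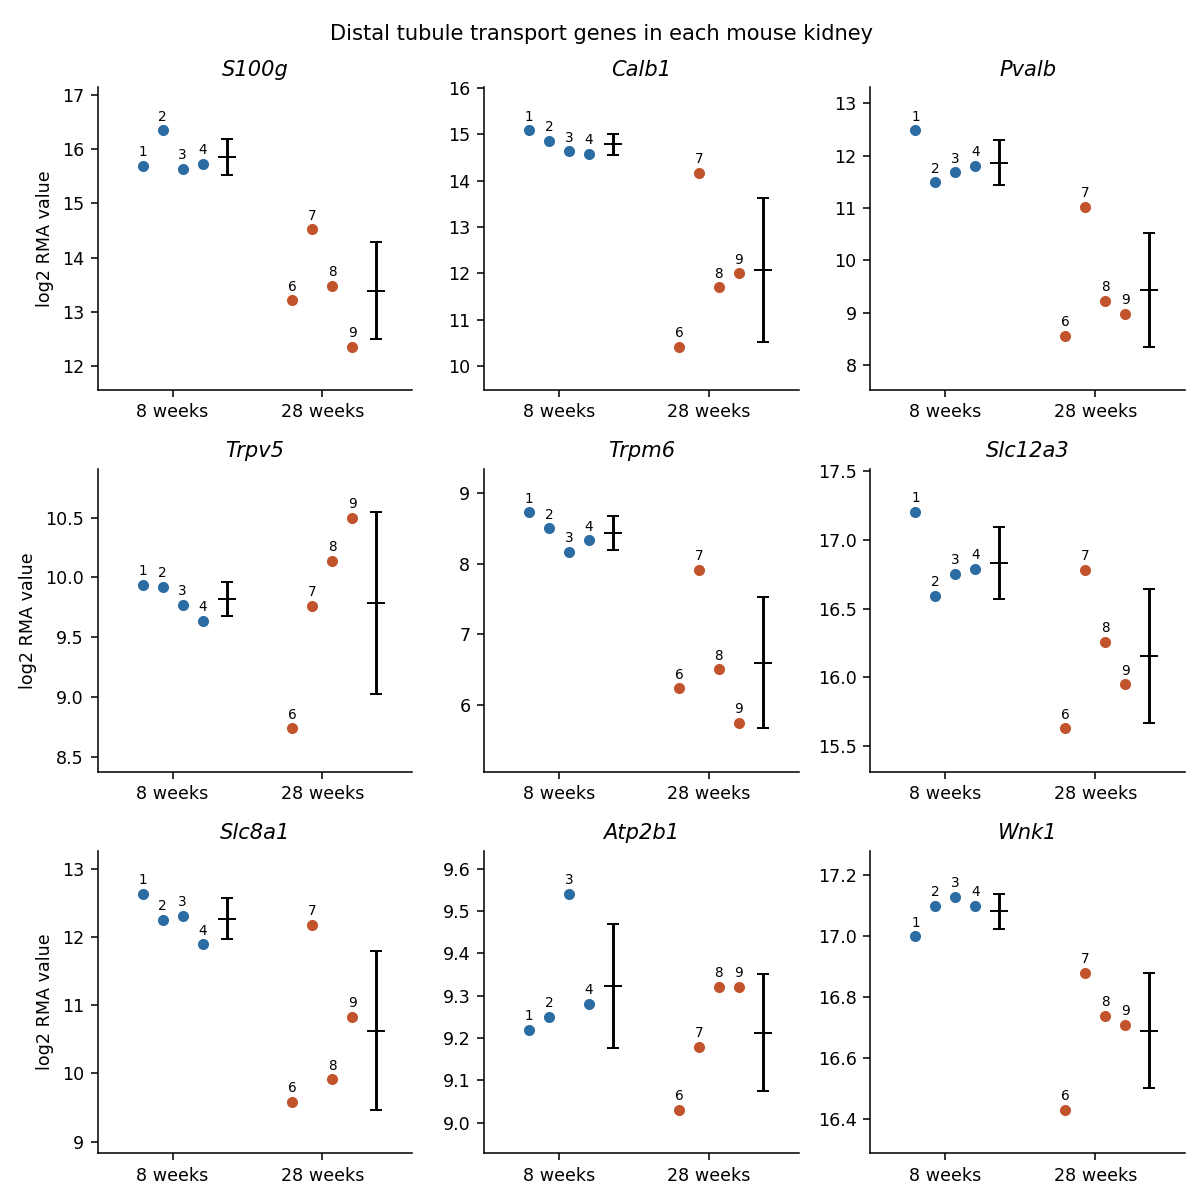
Log2 RMA value of each of the 9 measured genes (vertical axes, which differ between panels and do not start at 0) in each mouse at 8 weeks (blue) and 28 weeks (orange), labelled by replicate number, with the mean and SD in black. In S100g, Calb1, Pvalb, Trpm6 and Wnk1 all 4 mice of 28 weeks lie below all 4 of 8 weeks, and replicate 7 is the highest of the 28-week mice in each of these panels.

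S100g, the small vitamin D-dependent calcium buffer of the connecting tubule, had log2 values of 15.69, 16.34, 15.63 and 15.73 in 8-week replicates 1 to 4. The 28-week replicates 6, 7, 8 and 9 had values of 13.21, 14.52, 13.48 and 12.36. The ages did not overlap and were 1.11 apart between the highest 28-week and the lowest 8-week mouse, the widest such gap among the members. The mean was 15.85 ± 0.33 at 8 weeks and 13.39 ± 0.89 at 28 weeks, a log2 difference of -2.46 (SE 0.38, adjusted p = 0.0281 by limma). Replicate 7 was the highest of the 28-week mice and still lay below every 8-week mouse.

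Calb1, the larger calbindin of the distal convoluted and connecting tubule, had log2 values of 15.08, 14.85, 14.63 and 14.58 in the 8-week mice. In the 28-week mice the values were 10.42 in replicate 6, 14.17 in replicate 7, 11.70 in replicate 8 and 12.0 in replicate 9. Calb1 thus had the largest mean difference of the members, -2.71 on the log2 scale (SE 0.62), and also the widest spread at 28 weeks, with means of 14.79 ± 0.23 and 12.07 ± 1.56. It did not pass the threshold (adjusted p = 0.0752 by limma) although the ages did not overlap. Without 28-week replicate 7 the log2 difference of Calb1 was -3.41 (SE 0.34, adjusted p = 0.000566).

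Pvalb had log2 values of 12.48, 11.49, 11.68 and 11.81 in the 8-week mice and of 8.55, 11.02, 9.22 and 8.97 in 28-week replicates 6, 7, 8 and 9. Replicate 7 lay 0.47 below the lowest 8-week mouse and the other 28-week mice lay much further down. The mean was 11.87 ± 0.43 at 8 weeks and 9.44 ± 1.09 at 28 weeks, a log2 difference of -2.43 (SE 0.47, adjusted p = 0.0462 by limma). The call of Pvalb was also lost when limma used a mean-variance trend and robust estimation (adjusted p = 0.0579).

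The calls of S100g and Pvalb depended on which array was left out. S100g passed in the fit without 28-week replicate 7 (adjusted p = 0.000566) and in none of the other 7, where its adjusted p lay between 0.0522 without 8-week replicate 1 and 0.0968 without 8-week replicate 2. Pvalb likewise passed without 28-week replicate 7 (adjusted p = 0.000305) and in none of the others, where its adjusted p lay between 0.0934 and 0.165. The log2 difference itself stayed between -2.83 and -2.11 for S100g and between -2.95 and -2.13 for Pvalb.

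Trpv5, the apical calcium channel, had log2 values of 9.94, 9.92, 9.77 and 9.64 in the 8-week mice. In the 28-week mice it was 8.74 in replicate 6, 9.76 in replicate 7, 10.14 in replicate 8 and 10.50 in replicate 9, so 1 older mouse lay below all the younger ones and 2 lay above them. The means were 9.82 ± 0.14 and 9.79 ± 0.76, and the log2 difference was -0.03 with a 95% interval of -0.74 to 0.68 (adjusted p = 0.982 by limma). S100g, Calb1, Pvalb and Trpm6 lay below all 8-week mice in replicates 8 and 9, where Trpv5 was highest. These 4 genes did so in replicates 6 and 7 too. The sign of the Trpv5 difference changed when single arrays were left out, with log2 differences from -0.27 to 0.32. Trpv6, the close paralog of Trpv5 that carries calcium mainly in other epithelia, had log2 values between 3.20 and 4.27 in the 8 mice, near the lowest value of 2.31 in the data, and a log2 difference of 0.23 (adjusted p = 0.716).

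The promoters of S100g and Pvalb, the members that passed the threshold, are shown beside that of Trpv5, the member with the smallest difference, as RefSeq places them on GRCm38.p6. Each runs 5′ to 3′ from 250 bases before the annotated start to 50 after it, and capitals mark the TATA box letters TATAAA, searched on both strands. The S100g window is chrX:162964550-162964849 on the minus strand, the Pvalb window chr15:78206351-78206650 on the minus strand and the Trpv5 window chr6:41680674-41680973 on the minus strand.
S100g: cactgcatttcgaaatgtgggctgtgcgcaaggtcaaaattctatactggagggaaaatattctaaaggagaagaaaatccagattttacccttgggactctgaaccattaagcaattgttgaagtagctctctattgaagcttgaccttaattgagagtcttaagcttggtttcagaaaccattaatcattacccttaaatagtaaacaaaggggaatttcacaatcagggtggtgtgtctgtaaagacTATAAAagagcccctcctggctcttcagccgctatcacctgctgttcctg
Pvalb: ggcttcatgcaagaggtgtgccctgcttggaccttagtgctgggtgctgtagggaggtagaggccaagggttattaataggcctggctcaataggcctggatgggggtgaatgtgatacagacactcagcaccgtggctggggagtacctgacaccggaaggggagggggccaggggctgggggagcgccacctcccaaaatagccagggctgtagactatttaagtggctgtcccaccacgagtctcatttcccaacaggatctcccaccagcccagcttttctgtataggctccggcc
Trpv5: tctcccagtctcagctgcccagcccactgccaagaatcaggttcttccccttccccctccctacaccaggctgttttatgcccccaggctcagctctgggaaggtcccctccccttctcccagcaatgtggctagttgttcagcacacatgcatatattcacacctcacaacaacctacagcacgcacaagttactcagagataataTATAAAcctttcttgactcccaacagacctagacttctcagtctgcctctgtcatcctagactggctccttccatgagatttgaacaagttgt
TATAAA was found in the S100g window, where it begins at the annotated start itself, and 43 bases before the start in the Trpv5 window. It was not found in the Pvalb window, for which the table holds 2 starts and the outermost is shown. The 9 genes of the list with an entry in the promoter table had 11 windows. Of these genes 3 held TATAAA in at least 1 window, S100g, Trpv5 and Slc12a3, where 13.6% of all 32851 promoter windows held it. The clock-factor E-box CACGTG, searched on both strands, was found in 1 of these 9 genes, Atp2b1, and in 7.15% of all windows. The counts are of genes and the shares of windows, so the 2 are not on the same footing. The table had no entry for Calb1.

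On the exit side, Slc8a1 and Atp2b1 had unlike values. Slc8a1, the sodium-calcium exchanger, had log2 values of 12.63, 12.25, 12.31 and 11.89 in the 8-week mice and of 9.58, 12.18, 9.91 and 10.83 in 28-week replicates 6, 7, 8 and 9. Replicate 7 lay inside the 8-week range and the other 28-week mice lay below it. The log2 difference of Slc8a1 was -1.65 (SE 0.48, adjusted p = 0.13 by limma), and without replicate 7 it was -2.16 (adjusted p = 0.00274). Atp2b1, the calcium pump, which is made in most cell types, had log2 values of 9.22, 9.25, 9.54 and 9.28 at 8 weeks and of 9.03, 9.18, 9.32 and 9.32 at 28 weeks. The ages overlapped, and the log2 difference of Atp2b1 was -0.11 with a 95% interval of -0.42 to 0.20 (adjusted p = 0.798).

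Trpm6, the magnesium channel of the distal convoluted tubule, had log2 values of 8.73, 8.50, 8.17 and 8.33 in the 8-week mice. It had values of 6.23, 7.91, 6.50 and 5.74 in 28-week replicates 6, 7, 8 and 9, all below the 8-week range. The mean was 8.43 ± 0.24 at 8 weeks and 6.60 ± 0.93 at 28 weeks, a log2 difference of -1.84 (SE 0.39) that did not pass the threshold (adjusted p = 0.0607 by limma). It passed with a mean-variance trend and robust estimation (adjusted p = 0.0429) and without replicate 7 (adjusted p = 0.000461).

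Slc12a3, whose product NCC takes up sodium chloride and which defines the distal convoluted tubule, had log2 values of 17.20, 16.59, 16.75 and 16.79 at 8 weeks. In 28-week replicates 6, 7, 8 and 9 the values were 15.63, 16.78, 16.26 and 15.95, so that replicate 7 lay among the 8-week mice and the other older mice below them. The mean was 16.83 ± 0.26 at 8 weeks and 16.16 ± 0.49 at 28 weeks. The log2 difference was -0.68 (SE 0.24, adjusted p = 0.211 by limma), and without replicate 7 it was -0.89 (adjusted p = 0.0387). Wnk1, a kinase upstream of NCC, had log2 values of 17.00, 17.10, 17.13 and 17.10 at 8 weeks and of 16.43, 16.88, 16.74 and 16.71 at 28 weeks. The ages did not overlap, but the log2 difference of Wnk1 was small, -0.39 (SE 0.14, adjusted p = 0.205). The Wnk1 row is annotated to 5 transcripts, so the full-length kinase and the short kidney form, which lacks most of the kinase domain, are not told apart.

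Without 28-week replicate 7, 6 of the 9 members were lower at an adjusted p under 0.05, where 1.95% of all probes were. These were S100g, Calb1, Pvalb, Trpm6, Slc8a1 and Slc12a3. With all arrays 0.522% of all probes were lower, and replicate 7 had been picked for its likeness to the younger mice. In the 7 fits that left out any other array, none of the 9 passed, while 5 to 7 were lower at an unadjusted p under 0.05. Wnk1 had an adjusted p of 0.135, Atp2b1 of 0.839 and Trpv5 of 0.988 without replicate 7.

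**Figure D2:**
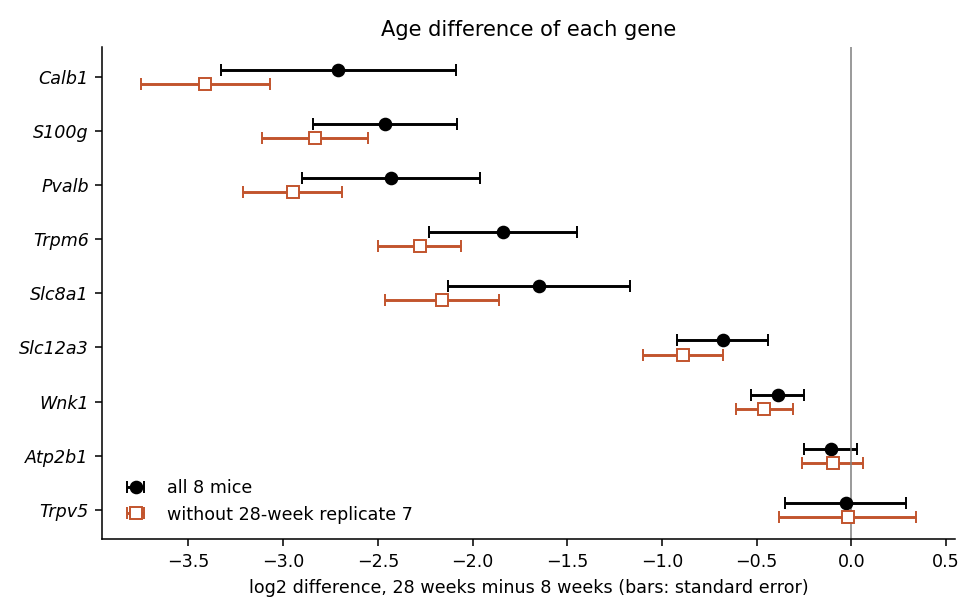
Log2 difference of each measured gene, 28 weeks minus 8 weeks (horizontal axis), with its SE as bars, from limma with all 8 mice (black circles) and without 28-week replicate 7 (orange squares). The differences run from -2.71 in Calb1 to -0.03 in Trpv5 with all mice, and leaving out replicate 7 moves Calb1 to -3.41 while Trpv5 stays at -0.02.

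To see whether the members moved equally with the gene that defines the distal convoluted tubule, the log2 value of Slc12a3 was subtracted from that of each other member within each mouse. This difference cannot compare levels between genes, only their change. S100g belongs to the connecting tubule and Atp2b1 is made in most cell types, so for these Slc12a3 does not stand for their own cells. Calb1 belongs to the connecting tubule as well as the distal convoluted tubule, so for it Slc12a3 stands for only part of its cells. Whether Slc12a3 stands for the cells of the other members was not tested. Relative to Slc12a3, the log2 difference of Calb1 between the ages was -2.04, with mouse values of -2.21 to -1.74 at 8 weeks and -5.21 to -2.61 at 28 weeks. It was -1.78 for S100g, -1.75 for Pvalb and -1.16 for Trpm6, and for these 4 members the ages did not overlap. Each of the 4 had a two-sided exact permutation p = 0.0286, the smallest that 70 arrangements of 4 against 4 mice can give, which is 0.0571 after Benjamini-Hochberg adjustment over the 8 members compared. So 0 of 8 passed 0.05 after adjustment, and 4 of 8 before it.

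The other members had smaller differences relative to Slc12a3. That of Slc8a1 was -0.97 (exact permutation p = 0.0571, adjusted 0.0914). That of Trpv5 was 0.65 (exact permutation p = 0.171, adjusted 0.196) and that of Atp2b1 0.57 (exact permutation p = 0.114, adjusted 0.152). That of Wnk1 was 0.29 (exact permutation p = 0.257, adjusted 0.257), and the ages overlapped in all 4 of these members. Replicate 7 of 28 weeks had been picked for its likeness to the younger mice. When any other single array was left out, 0 of 8 passed. Without 28-week replicate 7, where 35 arrangements are possible, 6 of 8 passed at an adjusted exact permutation p = 0.0381. The differences relative to Slc12a3 were then -2.53 for Calb1, -2.07 for Pvalb, -1.95 for S100g, -1.39 for Trpm6, -1.28 for Slc8a1 and 0.79 for Atp2b1.

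**Figure D3:**
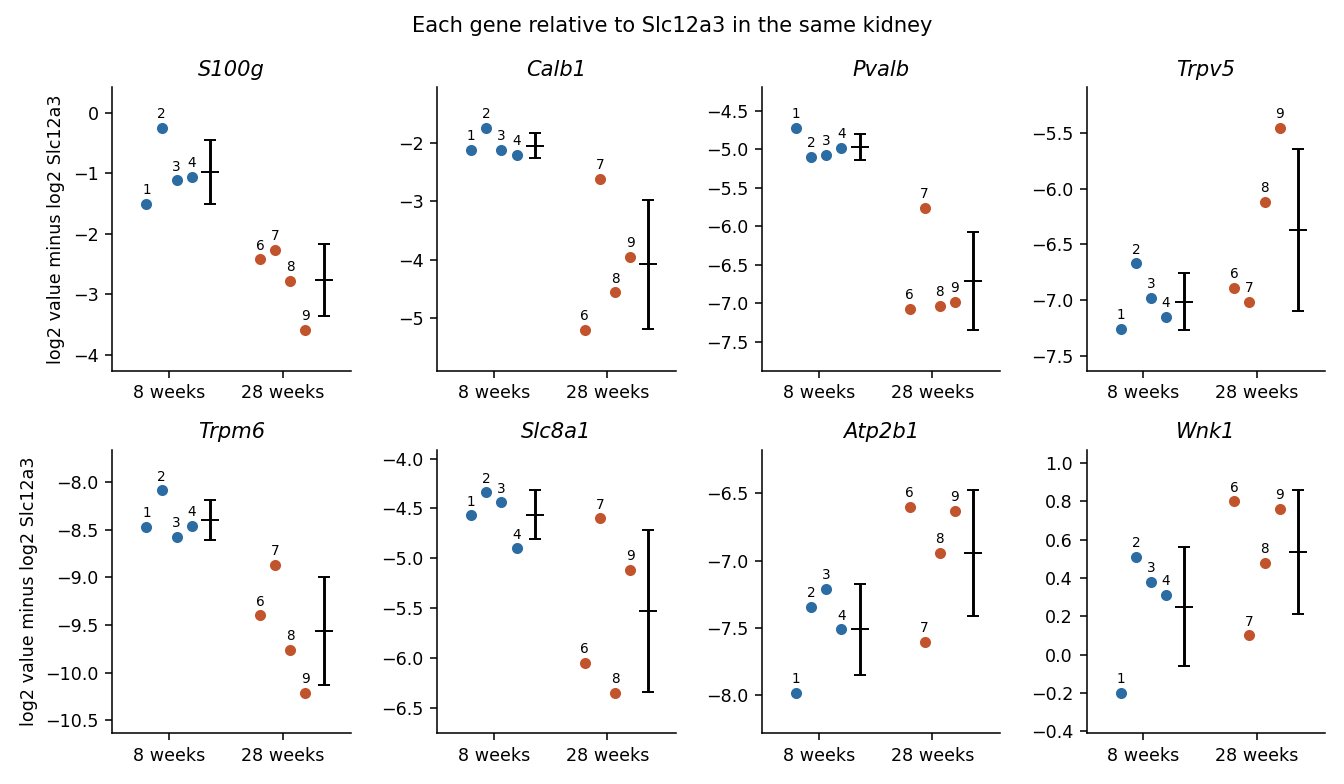
Log2 value of each of 8 genes minus the log2 value of Slc12a3 in the same mouse (vertical axes, which differ between panels), at 8 weeks (blue) and 28 weeks (orange), labelled by replicate number, with the mean and SD in black. The ages are apart in S100g, Calb1, Pvalb and Trpm6 and overlap in Trpv5, Slc8a1, Atp2b1 and Wnk1, and the level in a panel has no meaning between genes.

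In each mouse the log2 values of the 9 members were set against their 8-week means and averaged. This average lay between -0.12 and 0.19 at 8 weeks. At 28 weeks it was -2.05 in replicate 6, -0.43 in replicate 7, -1.44 in replicate 8 and -1.54 in replicate 9. Lists of leukocyte and injured tubule markers were higher in the 28-week mice, least so in replicate 7. In replicates 6, 8 and 9 the injured tubule list was 1.82, 2.47 and 2.71 above its 8-week mean, and the leukocyte list 3.83, 2.86 and 1.84. Among these mice the members were lowest in replicate 6, where the injured tubule list was lowest and the leukocyte list highest. The mean log2 level of 8 of 9 leukocyte markers lay between 5.92 and 6.28 at 8 weeks and between 6.83 and 9.99 at 28 weeks, and that of 8 injured tubule markers between 7.51 and 7.91 at 8 weeks and between 8.12 and 10.43 at 28 weeks. All 8 leukocyte differences were positive and none passed the threshold, with 8 at an unadjusted p under 0.05, where 15% of all probes were. Of the 8 injured tubule differences 7 were positive and that of Sox9 was negative, at -0.15, and 4 were at an unadjusted p under 0.05. Cdkn1a and Vcam1 of this list passed as higher (adjusted p = 0.00147 and 0.0423 by limma), and the injury marker Havcr1 did not (adjusted p = 0.655). In replicate 7 the leukocyte and injured tubule lists were 0.67 and 0.40 above the 8-week mean, against at least 1.84 and 1.82 in the other 28-week mice. No marker was at the lowest value of the data in any mouse, and the part of these cells in the fall of the members was not tested.

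Markers of other tubule segments had list medians closer to 0 than that of the members. The 5 thick ascending limb markers, among them the cotransporter gene Slc12a1 and the uromodulin gene Umod, all had positive differences. Their median was 0.93 on the log2 scale, and that of the 7 collecting duct principal cell markers was -0.19. The 7 intercalated cell markers had a median of -0.26 and the 7 proximal tubule markers one of -0.31. Among the markers of these 4 lists the 1 that passed was the proximal organic anion transporter gene Slc22a6, at -0.91 (adjusted p = 0.0313 by limma). By mouse the proximal tubule list was -0.59, -0.19, -0.55 and -0.76 from its 8-week mean in replicates 6, 7, 8 and 9, against -0.04 to 0.04 at 8 weeks, so replicate 7 was nearest to the younger mice here too. The 5 stroma markers all had positive differences with a median of 0.75 and none passed, and none was at an unadjusted p under 0.05. By mouse the stroma list was 1.37, -0.46, 0.56 and 1.34 from its 8-week mean in replicates 6, 7, 8 and 9, and -0.55 to 0.91 at 8 weeks. The differences between lists, and the part of these cells in the members' values, were not tested.

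**Figure D4:**
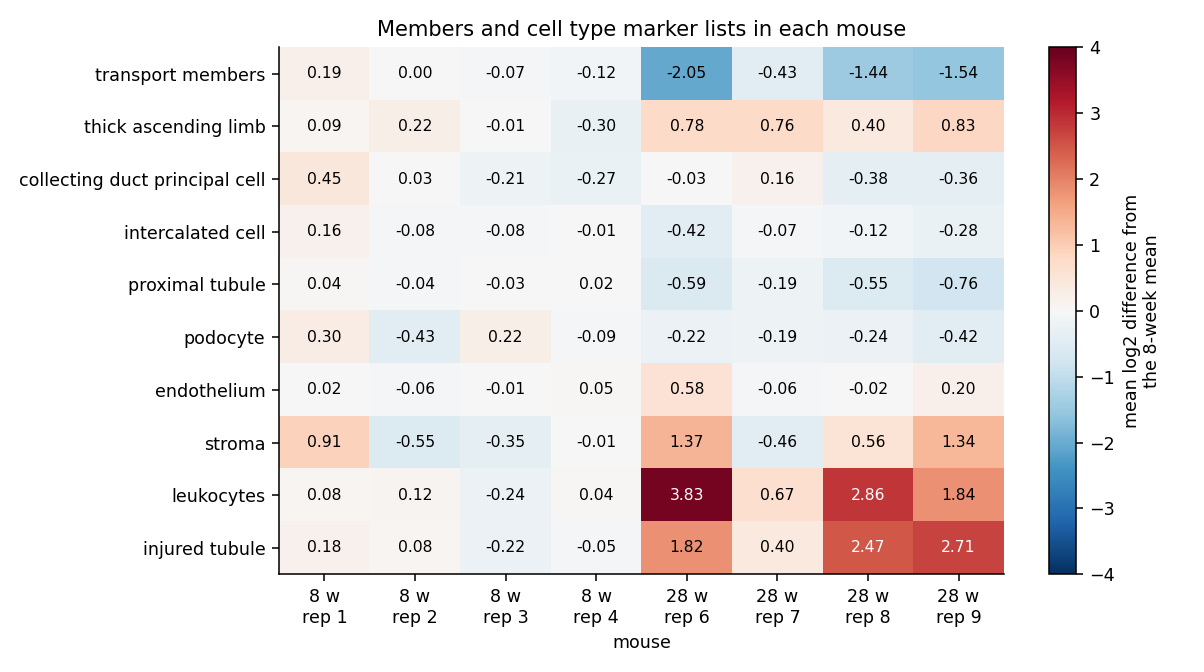
Mean log2 difference of each gene list from its 8-week mean (colour and printed value) in each of the 8 mice (columns, w for weeks and rep for replicate), for the 9 transport members and lists of cell type markers (lines). Replicates 6, 8 and 9 of 28 weeks combine the lowest values of the transport members, -2.05 to -1.44, with the highest of the leukocyte and injured tubule lists, and replicate 7 lies between them and the 8-week mice.

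In the wider set of distal transport genes few differences passed the threshold. Of 63 other genes in 5 lists, 55 were measured, 3 were higher and 1 was lower at an adjusted p under 0.05, where 0.446% of all probes were higher and 0.522% lower. Their median log2 difference was -0.06, with 24 positive and 31 negative. The 4 calls were those of Anxa2, Sgk1, Tfap2b and Prss8. Each of the 4 calls held without 28-week replicate 7 and was lost when any other array was left out, with an adjusted p of up to 0.147.

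Of the other calcium genes 14 of 16 were measured, with 7 positive and 7 negative differences and a median of 0.03. Anxa2, whose product annexin A2 acts with S100a10 to bring Trpv5 to the membrane, had log2 values of 7.67, 7.49, 7.41 and 7.30 at 8 weeks and of 9.73, 8.14, 9.95 and 10.19 at 28 weeks. It rose 4.1-fold (adjusted p = 0.0426 by limma), with replicate 7 lowest among the older mice, and it is also a gene of many other cells. Pth1r, the parathyroid hormone receptor gene, had means of 14.46 ± 0.26 and 13.69 ± 0.12 without overlap (log2 difference -0.77, adjusted p = 0.0583), and replicate 7, at 13.64, was among the lower older mice here.

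The genes of vitamin D and klotho that bear on this transport were measured too. Kl, which encodes the klotho protein of the distal tubule, had log2 values of 15.79 to 16.27 at 8 weeks and of 14.44, 15.82, 14.77 and 14.38 in 28-week replicates 6, 7, 8 and 9, a log2 difference of -1.24 (adjusted p = 0.081 by limma). Vdr, the vitamin D receptor gene, had a log2 difference of -0.24 (adjusted p = 0.636), the calcium-sensing receptor gene Casr one of -0.23 (adjusted p = 0.578), and the tissue kallikrein gene Klk1 one of -0.19 (adjusted p = 0.566). None of these passed the threshold.

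Of the other magnesium genes 13 of 14 were measured, none passed, and 10 differences were negative and 3 positive. At an unadjusted p under 0.05 there were 7 genes, where 15% of all probes were. Of these Cnnm2, Egf, Egfr and Kcna1 were lower and Cldn16, Cldn19 and Mrs2 higher. Egf, a growth factor of the distal nephron that raises magnesium uptake, had log2 values of 15.77, 15.65, 15.75 and 15.74 at 8 weeks and of 15.08, 15.44, 14.54 and 14.46 at 28 weeks, with a log2 difference of -0.85 (adjusted p = 0.0951 by limma). Cnnm2, linked to magnesium transport across the basolateral membrane, had a log2 difference of -0.80 (adjusted p = 0.101), and Kcna1, an apical potassium channel gene of the distal convoluted tubule, one of -0.69 (adjusted p = 0.0809). The ages did not overlap in Egf, Cnnm2 and Kcna1, a separation in this direction seen in 4.33% of all probes. Kcna1 had log2 values between 3.43 and 4.57 in the 8 mice, near the lowest value of 2.31 in the data. Trpm7, the ubiquitous relative of Trpm6, had a log2 difference of -0.20 (adjusted p = 0.616) and Fxyd2, a sodium pump subunit gene, one of -0.10 (adjusted p = 0.835). Cldn19, a claudin gene of the thick ascending limb, where magnesium is taken up between the cells, had log2 values of 8.75 to 9.89 at 8 weeks and of 10.12 to 11.11 at 28 weeks, a log2 difference of 1.47 (adjusted p = 0.0603).

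The cascade that controls NCC gave no calls. Of the other genes of sodium chloride and potassium transport in the distal convoluted tubule 15 of 17 were measured, 10 with positive and 5 with negative differences. At an unadjusted p under 0.05 there were 3, where 15% of all probes were. Stk39, which encodes the kinase SPAK that phosphorylates NCC, had means of 11.44 ± 0.15 and 11.97 ± 0.29 without overlap (log2 difference 0.53, adjusted p = 0.166 by limma), and was highest in replicate 7, at 12.34. Cab39l, which encodes a partner protein of that kinase, had a log2 difference of 0.44 (adjusted p = 0.203). The log2 differences were 0.21 for the kinase gene Wnk4, -0.23 for Oxsr1, which encodes the related kinase OSR1, and 0.14 for Cul3, the ubiquitin ligase scaffold that works with Klhl3, with adjusted p of 0.804, 0.494 and 0.771. The basolateral potassium channel genes Kcnj10 and Kcnj16 had log2 differences of -0.36 and -0.01 (adjusted p = 0.406 and 0.994).

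In the aldosterone-sensitive list 9 of 10 genes were measured, and 1 rose and 1 fell. Sgk1, an aldosterone- and glucocorticoid-induced kinase gene, had log2 values of 11.73, 12.45, 12.62 and 11.67 at 8 weeks and of 13.38, 13.81, 13.27 and 13.09 at 28 weeks. It rose 2.41-fold (adjusted p = 0.0495 by limma, but 0.0566 with each array centred on its median, 0.0624 with arrays centred on ribosomal protein genes and 0.0536 when 28-week replicate 7 and 8-week replicate 1 were left out together). Among the older mice Sgk1 was highest in replicate 7, which was thus the furthest from the 8-week values. In the average of the members the same mouse was the nearest to them. Prss8, which encodes the sodium channel-activating protease prostasin, had values of 15.44 to 16.01 at 8 weeks and of 14.72, 15.11, 14.54 and 14.61 at 28 weeks, and fell 1.97-fold (adjusted p = 0.039). The sodium channel subunit gene Scnn1a had a log2 difference of -0.17 (adjusted p = 0.727), the mineralocorticoid receptor gene Nr3c2 one of -0.37 (adjusted p = 0.34) and the ubiquitin ligase gene Nedd4l one of -0.01 (adjusted p = 0.988).

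Of 6 transcription factors of the distal tubule 4 were measured. Tfap2b, which is needed for the formation of the distal convoluted tubule, had log2 values of 10.66, 11.02, 10.43 and 10.62 at 8 weeks and of 11.85, 11.60, 11.48 and 12.05 at 28 weeks. It rose 2.09-fold (adjusted p = 0.033 by limma), with replicate 7 inside the range of the other older mice. Irx1 had a log2 difference of 0.46 (adjusted p = 0.27), with the ages overlapping.

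**Figure D5:**
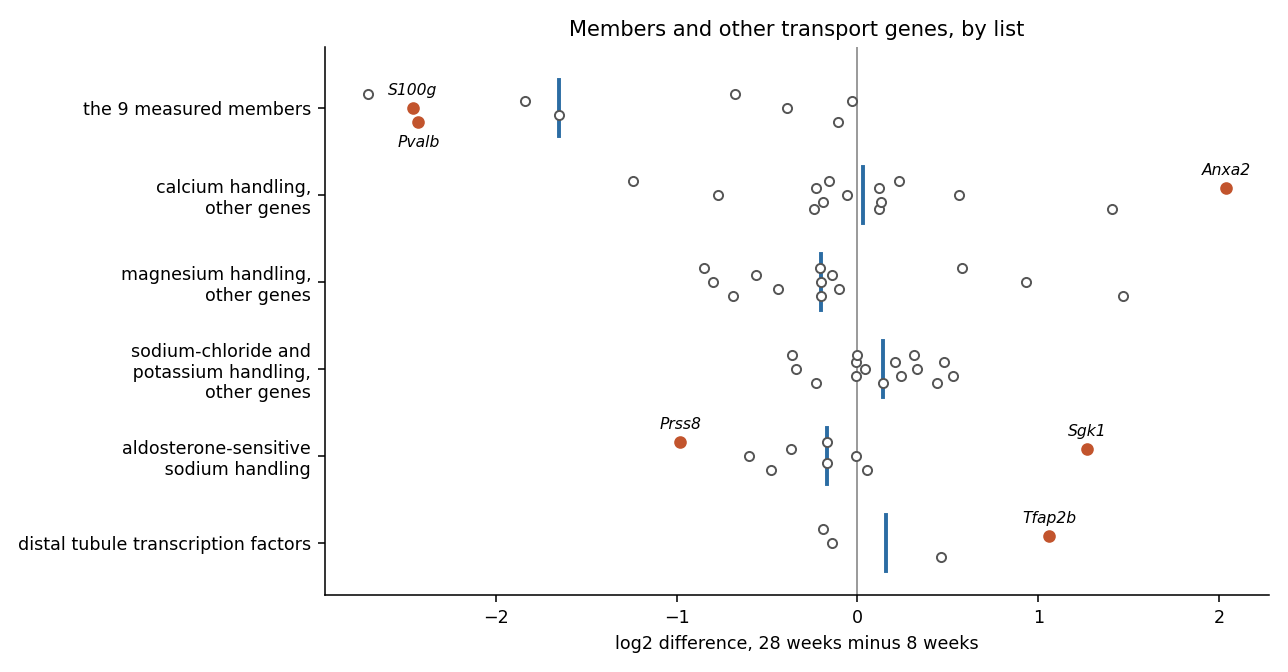
Log2 difference, 28 weeks minus 8 weeks (horizontal axis), of each measured gene (circles) in the member list and in 5 lists of other distal transport genes (lines), with the list median as a blue bar. Filled orange circles are genes past an adjusted p of 0.05, which are S100g and Pvalb among the members and Anxa2, Prss8, Sgk1 and Tfap2b in the other lists, whose medians lie between -0.20 and 0.16 against -1.65 for the members.

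The profile of Calb1, the member with the largest difference, was set against all 19571 other named probes by the root mean square distance between log2 profiles over the 8 mice, each centred on its own mean. The nearest were those of the clock repressor gene Nr1d1 (a distance of 0.43), of Pvalb (0.44), of the N-acetyltransferase family gene Nat8f7 (0.47) and of the clock genes Per3 (0.52) and Ciart (0.61). In all 5, as in Calb1, replicate 7 was the highest of the 28-week mice and replicate 6 the lowest. The probes were picked for their nearness to Calb1, so this shared order follows from the choice. Of the other members Slc8a1 ranked 6, Trpm6 10 and S100g 12 by this distance to Calb1, Slc12a3 208, and Wnk1, Trpv5 and Atp2b1 ranked 1170, 5382 and 6190.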

How the data were processed

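Kidney total RNA of 8 NZBWF1 mice, 4 of each age, was measured on Clariom S Mouse arrays, which have 1 colour. The deposited values are log2 expression values, for which the submitters' processing notes name RMA (background correction, quantile normalization and summary per transcript). The sources used here give neither its version nor its settings. The log base is not stated and was taken as 2, as RMA gives by convention, since values run from 2.31 to 19.89. RMA can compress folds, and whether it did so here was not tested. It gives no detection call. The platform annotation gave 1 gene symbol to 19572 of 22206 probes (88.1%), several to 0 and none to 2634. Of the 10 listed genes 9 matched, and their symbols needed no update against RefSeq.

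Groups came from the sample titles. Each array was taken as 1 mouse, as the series' design gives, and no batch was named. limma 3.58.1 under R 4.3.3 fitted all probes, unfiltered, with age as the term, and p-values were adjusted over all of them (Benjamini-Hochberg). The variance prior had 4.13 degrees of freedom. For differences from Slc12a3 within a mouse, the test was an exact permutation test (two-sided). The members, the gene lists and the alternatives were chosen with earlier results of these data known. Named genes were all members, a set of partner genes, each list's genes past the threshold and its 2 smallest p, and the 5 profiles nearest to the member with the largest difference. Alternatives were other scalings, filters on dim probes, other limma settings, an adjusted p under 0.01, and arrays left out. The code was tested on simulated data. Python 3.11.15, pandas 2.3.3 and matplotlib 3.10.9 made tables and figures.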

Additional observations from a re-analysis of the deposited data

Results flagged for a closer look

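Within an age, 4 values stood far from the other 3 mice by Dixon's test, among 80 groups of 4 values of 40 genes, where chance gives about 1 in 20. In 8-week replicate 2 S100g was 16.34, while the other mice of that age had 15.63 to 15.73. Leaving that mouse out gave the S100g difference an adjusted p of 0.0968 by limma. Cnnm2 was 10.09 in 8-week replicate 1, against 9.46 to 9.52 in the others. Nedd4l was 14.2 in the same mouse, against 13.81 to 13.85. Fxyd2 was 17.99 in 28-week replicate 7, against 17.74 to 17.78.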

How the results depend on the processing

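The age differences of S100g, Calb1, Pvalb, Trpm6, Slc8a1, Slc12a3, Atp2b1 and Wnk1 kept their sign under every alternative run, and that of Trpv5 turned to 0.10 with array weights and to 0.02 without both 8-week replicate 1 and 28-week replicate 7, with a range of -0.27 to 0.32 over the fits that left out 1 array. The count of members lower at 28 weeks, 2 with all arrays, was 4 without the dimmest 50% of probes, 4 with array weights, 5 without both arrays, 0 at an adjusted p under 0.01 (7 at an unadjusted p under 0.05) and 0 to 6 with 1 array left out. For the other pathway genes the count lower, 1, became 2 without the dimmest 33.3% or 50% of probes, 3 with trend and robust estimation, 6 with array weights, 6 without both arrays, 0 at an adjusted p under 0.01 (9 at an unadjusted p under 0.05) and 0 to 5 with 1 array left out. The count higher, 3, was 2 with each array centred on its median, 4 with quantile normalization, with either filter on dim probes and with trend and robust estimation, 6 with array weights, 7 without both arrays, 0 at an adjusted p under 0.01 (11 at an unadjusted p under 0.05) and 0 to 6 with 1 array left out. The number of members that differed from Slc12a3 was 0 to 6 with 1 array left out. Without both arrays that exact test cannot go below p = 0.1. The filters change the number of probes adjusted over; the cause of the other changes was not tested. The mean over a gene's rows was not run, since each member has 1 row. No paired analysis was possible because the ages share no replicate number.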

Other observations

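Cyp24a1, the vitamin D 24-hydroxylase gene, fell outside the rule for named genes and was chosen after its values were seen. Its log2 values were 10.78, 11.42, 11.17 and 11.17 at 8 weeks and 11.90, 13.65, 12.58 and 12.06 in 28-week replicates 6, 7, 8 and 9, a log2 difference of 1.41 (adjusted p = 0.0852 by limma). Every older mouse lay above every younger one, and the highest was replicate 7, the older mouse in which S100g, Calb1, Pvalb and Trpm6 were nearest to the 8-week values.

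Mrs2, which encodes the magnesium channel of mitochondria, was likewise chosen after its values were seen. Its log2 values were 9.57, 9.28, 8.91 and 9.12 at 8 weeks and 9.73, 9.75, 9.90 and 9.83 at 28 weeks, without overlap and with replicate 7 inside the range of the older mice (log2 difference 0.58, adjusted p = 0.116 by limma).

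The epithelial sodium channel subunit genes Scnn1b and Scnn1g had log2 differences of -0.48 and -0.60 (adjusted p = 0.297 and 0.225 by limma). The ages did not overlap in these 2 genes, with gaps of 0.01 and 0.03, and did in Scnn1a. Such a separation was seen in 4.33% of all probes.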
